A study of Mus musculus with 8 samples.

Results

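The Reg genes of mouse encode small secreted C-type lectin-like proteins of the gut and the pancreas. The 5 members followed here, *Reg3b*, *Reg3g*, *Reg3a*, *Reg1* and *Reg4*, were taken by symbol from tables of 11554 genes listed for crypts and 12701 genes listed for villi, 13028 genes in all. The family was singled out because *Reg3b* had been seen much lower in the villi of mutant mice, so the villus differences below are a description with no test. All 5 genes were listed in both tables and passed the filter on low values.

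RNA came from freshly isolated crypts and villi of the small intestine of C57BL/6 mice, collected 1 month after tamoxifen. In *Gli1-PtgscKO* mice a tamoxifen-activated Cre, expressed from *Gli1*, removes the floxed cyclooxygenase genes *Ptgs1* and *Ptgs2* (enzymes COX1 and COX2) from mesenchymal cells that express Gli1. The Reg genes themselves are not targeted. The sample labels call the Ctrl mice wild type and describe them as *Gli1-CreERT2; Rosa26-tdTomato* mice, whereas a legend of the study gives floxed *Ptgs1* and *Ptgs2* without Cre. The labels give neither the age of the mice nor whether animals were pooled, and the RNA and library kits they name differ from those in the study's methods. Each group has 2 libraries per tissue in the labels, but the Ctrl villus columns held identical values for all 12701 genes and were counted as 1 library, which left 7 distinct libraries.

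The files give gene counts divided by a size factor for each library, called normalized counts here. The reads on listed genes numbered 16853017 to 21121714 in the crypt libraries and 13477600 to 15751024 in the villus libraries. Of the 2 targeted genes, *Ptgs1* stood at 365.5 and 163.8 normalized counts in Ctrl crypts and 178.4 and 198.9 in *Gli1-PtgscKO* crypts, 90.4 in Ctrl villi and 50.5 and 92.7 in *Gli1-PtgscKO* villi, and these values overlapped in both tissues. *Ptgs2* and *Gli1* were not among the listed genes. The tissues matched their labels. Stem cell markers summed to between 4892 and 5585 CPM (reads scaled to the library's total on listed genes) in crypts and between 177 and 420 in villi, while enterocyte markers summed to between 5270 and 7446 in crypts and between 29168 and 34761 in villi. Libraries also differed in how their counts depended on transcript length, which is given with the villus values because the Reg transcripts are short. Bulk RNA cannot tell fewer cells of a type from less RNA per cell.

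Reg3b and Reg3g are made by enterocytes and Paneth cells. Reg3g binds peptidoglycan and kills Gram-positive bacteria close to the epithelium, and interleukin-22, signalling through its receptor and the transcription factor Stat3, together with Myd88-dependent sensing of microbes, is known to raise both. Reg3a and Reg1 belong to the same family, Reg1 being best known from the pancreas, and Reg4 is found in enteroendocrine cells and in the deep secretory cells of the colon.

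The genes of 4 members lie together: *Reg3b* (chr6:78370657-78373466, plus strand), *Reg3a* (chr6:78380709-78383827, plus), *Reg1* (chr6:78422711-78428667, plus) and *Reg3g* (chr6:78466269-78468872, minus) span 98.2 kb of GRCm38, the mm10 build. *Reg4* lies apart, at chr3:98222156-98236748 on the plus strand. The longest coding transcripts are short, 783 bases for *Reg3b*, 771 for *Reg3g*, 825 for *Reg3a*, 904 for *Reg1* and 1021 for *Reg4*. The transcripts of *Reg3b* and *Reg3g* were 74.7% identical over 739 aligned bases and those of *Reg3b* and *Reg3a* 75.5% identical over 762, but no pair shared a run of 50 bases, and the longest shared run was 35 bases, between *Reg3b* and *Reg3g*. How the authors' counting treated reads that fit more than 1 gene is not given in the sources used here.

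The sequences before the transcription start of *Reg3b* and *Reg3g*, the pair with the largest villus differences, are shown because these genes moved together and because Stat3-type sites are of interest in them. Each line holds the 150 bases before the RefSeq start, 5′ to 3′ on the gene's own strand, for *Reg3b* chr6:78370735-78370884 (plus) and for *Reg3g* chr6:78468875-78469024 (minus) of GRCm38.p6. Capitals mark matches to TTCNNNGAA, the palindrome that Stat factors recognise, and to TATAAA, the TATA box.
Reg3b: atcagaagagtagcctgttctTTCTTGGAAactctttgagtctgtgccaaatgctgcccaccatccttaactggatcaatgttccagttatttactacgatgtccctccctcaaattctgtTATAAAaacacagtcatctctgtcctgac
Reg3g: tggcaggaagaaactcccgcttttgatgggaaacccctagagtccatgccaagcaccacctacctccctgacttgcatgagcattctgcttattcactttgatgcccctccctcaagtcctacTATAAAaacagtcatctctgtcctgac

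The windows were 70.3% identical over 148 aligned bases and shared a run of 20 bases at the end next to the start. TTCNNNGAA was searched on both strands and stood once in *Reg3b*, 129 to 121 bases before the start, and in none of the other 4 Reg windows. It occurs in 4.09% of 32851 RefSeq promoter windows of the same length. TATAAA stood 29 to 24 bases before the start of *Reg3b*, 27 to 22 before that of *Reg3g* and 30 to 25 before that of *Reg1*, against 7.57% of all windows on either strand. GATAA, the core of GATA sites, stood in the *Reg4* window alone among the 5, at 136 to 132 bases on the opposite strand and at 100 to 96 bases, and occurs in 13.3% of all windows. The *Reg3a* window held none of the 3 motifs. Its last bases match a stretch that lies before TATAAA in the *Reg3g* window, and bases beyond the *Reg3a* window were not searched. A match is a run of letters and not a shown binding site, and 24 bases of the *Reg3b* window lie within annotated GENCODE exons.

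In crypts *Reg3b* and *Reg3g* varied more between replicates than between genotypes. The normalized count of *Reg3b* was 53988 and 23668 in Ctrl crypts and 42842 and 20847 in *Gli1-PtgscKO* crypts. Replicate 1 was the higher library in each genotype, by 2.28 times in Ctrl and 2.06 times in *Gli1-PtgscKO*, and the genotypes overlapped. The log2 fold change, on the scale of log2(normalized count + 1), was −0.26 with a standard error of 0.54 and a 95% interval from −1.54 to 1.02, and the adjusted p from limma-trend over all 11554 genes was 1.00. *Reg3g* had 41400 and 16305 in Ctrl and 26238 and 15094 in *Gli1-PtgscKO*, with the same high replicate 1 libraries and again an overlap. Its log2 fold change was −0.38 (SE 0.52, interval −1.62 to 0.85, adjusted p = 1.00 by limma-trend). The *Gli1-PtgscKO* crypt libraries also differed for short transcripts in general. Genes of at most 1291 bases, all 5 Reg genes among them, had a median log2 difference from the Ctrl mean of 0.85 in replicate 1. In replicate 2 that median was −0.16. The part of transcript length in the replicate gaps of *Reg3b* and *Reg3g* was not tested, and no such median is given between the Ctrl libraries. Without Ctrl replicate 1 the estimates were 0.34 for *Reg3b* and 0.29 for *Reg3g*, and without *Gli1-PtgscKO* replicate 2 they were 0.26 and 0.01, so the sign depended on single libraries. The intervals include a fall of more than 1 on the log2 scale as well as no change. With 2 libraries on each side, the smallest two-sided p that an exact permutation test allows is 0.333.

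Among the members that are less abundant in crypts, *Reg3a* had 577 and 987 normalized counts in Ctrl and 1286 and 891 in *Gli1-PtgscKO*, which overlapped, with a log2 fold change of 0.50 (SE 0.35, interval −0.33 to 1.34). *Reg1* had 5250 and 5561 in Ctrl against 6365 and 6154 in *Gli1-PtgscKO*. *Reg4* had 4135 and 5054 against 6648 and 5788. For *Reg1* and *Reg4* both *Gli1-PtgscKO* libraries lay above both Ctrl libraries, with log2 fold changes of 0.21 (SE 0.24, interval −0.36 to 0.79) and 0.44 (SE 0.26, interval −0.17 to 1.05), although with the length correction given below the *Reg1* value was −0.15. Such a separation held for 9.73% of all crypt genes upward, and for 11.3% downward, where no Reg gene was found. The adjusted p of *Reg3a*, *Reg1* and *Reg4* by limma-trend was 1.00 each.

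By limma-trend 0 of the 5 Reg genes passed an adjusted p under 0.05 in crypts, and 0% of all genes did. None of the 5 had an unadjusted p under 0.05 either, a level that 73 genes, or 0.632%, reached. At the threshold used in the study, an unadjusted p under 0.01 with an absolute log2 fold change over 1, 0.173% of genes were higher and 0.00866% lower, with no Reg gene among them. The methods speak of biological replicates, but the labels do not say whether they were separate animals, so these p-values measure the spread between the samples, which may be technical.

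**Figure D1:**
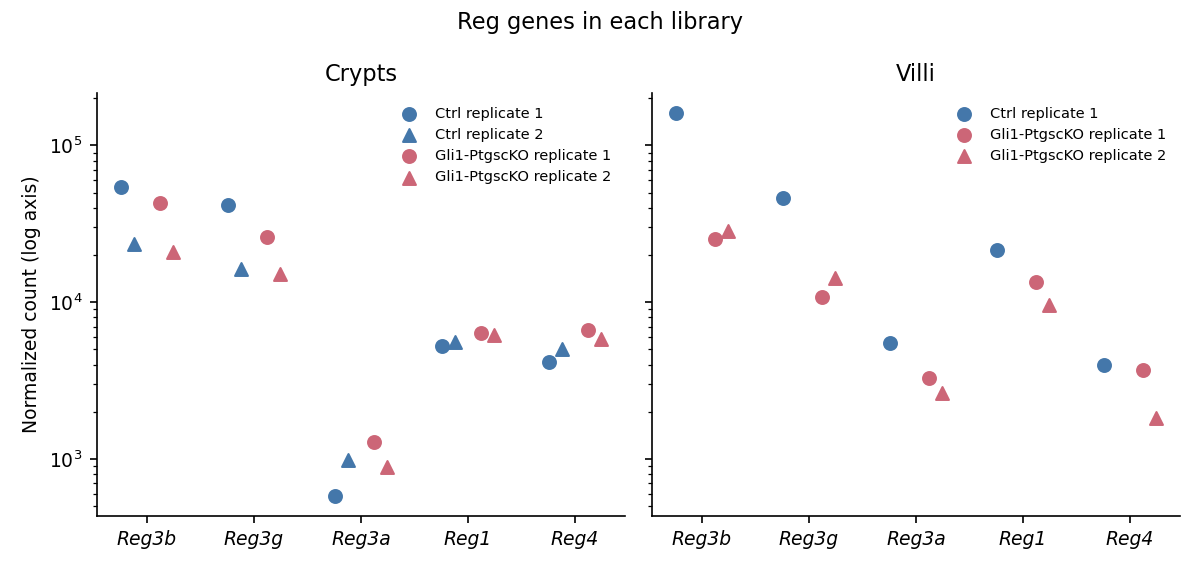
Normalized counts of the 5 Reg genes in each distinct library on a log axis, crypts on the left (2 Ctrl and 2 *Gli1-PtgscKO* libraries) and villi on the right (1 Ctrl and 2 *Gli1-PtgscKO* libraries); circles are replicate 1 and triangles replicate 2. The tissues were normalized separately, so heights compare within a panel only. In crypts the circles of *Reg3b* and *Reg3g* stand above the triangles in both genotypes, and in villi the Ctrl library stands above both *Gli1-PtgscKO* libraries, most for *Reg3b* with 161597 against 25433 and 28464.

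In villi *Reg3b* was the abundant gene with the most negative difference. It had 161597 normalized counts in the Ctrl library and 25433 and 28464 in the *Gli1-PtgscKO* libraries, from 139503, 33264 and 29470 reads. The Ctrl library was 6.35 and 5.68 times higher, a log2 difference of −2.59, while the *Gli1-PtgscKO* libraries differed from each other by 0.16. *Reg3g* had 46512 in Ctrl and 10864 and 14177 in *Gli1-PtgscKO*, 4.28 and 3.28 times higher in Ctrl, a log2 difference of −1.91. Ordered from the most negative difference, *Reg3b* stood 50th and *Reg3g* 108th of 12701 genes. Among the 630 genes at least as abundant as *Reg4*, the least abundant member, they stood 1st and 5th. These ranks were taken without the length correction and describe a contrast on which the family was chosen.

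The other members lay lower in the *Gli1-PtgscKO* villi by smaller amounts. *Reg1* had 21640 normalized counts in Ctrl and 13511 and 9544 in *Gli1-PtgscKO*, a log2 difference of −0.93, and *Reg3a* had 5513 against 3265 and 2654, a difference of −0.90. *Reg4* had 3972 in Ctrl and 3723 and 1820 in *Gli1-PtgscKO*, so that its difference of −0.61 was smaller than the gap of 1.03 between the *Gli1-PtgscKO* libraries and turned to 0.07 with the length correction. A sixth family gene, *Reg3d*, was listed in villi only, with 13 reads in Ctrl and 16 and 12 in *Gli1-PtgscKO*, and *Reg2* was not listed in either table.

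Both *Gli1-PtgscKO* villus libraries lay below Ctrl for 5 of the 5 Reg genes, as they did for 44.2% of all villus genes. With scaling by library size alone, which moved the median difference of all villus genes from −0.01 to 0.42, this held for 4 of 5 Reg genes against 24.3% of all genes, *Reg4* being the exception. A log2 difference under −1 in addition was found for *Reg3b* and *Reg3g*, against 9.4% of all genes. Since the family was chosen on this contrast, nothing is read from these shares, and with 1 Ctrl library there is no estimate of how far Ctrl villi vary.

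The dependence on transcript length touched all 5 Reg genes. Across 12692 villus genes the log2 difference from Ctrl rose with the length of the longest coding transcript, with a Spearman correlation across genes of 0.55 in *Gli1-PtgscKO* replicate 1 and 0.52 in replicate 2. These genes share their libraries and are not independent replicates. All 5 Reg genes are among the shortest 10% of villus genes, at most 1189 bases, whose median difference was −0.83 and −0.74 in *Gli1-PtgscKO* replicates 1 and 2, against −0.01 for all genes in each. In crypts the correlation with length, over 11546 genes, was −0.69 in *Gli1-PtgscKO* replicate 1 and 0.34 in replicate 2, so it went in opposite directions in libraries of 1 genotype.

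**Figure D2:**
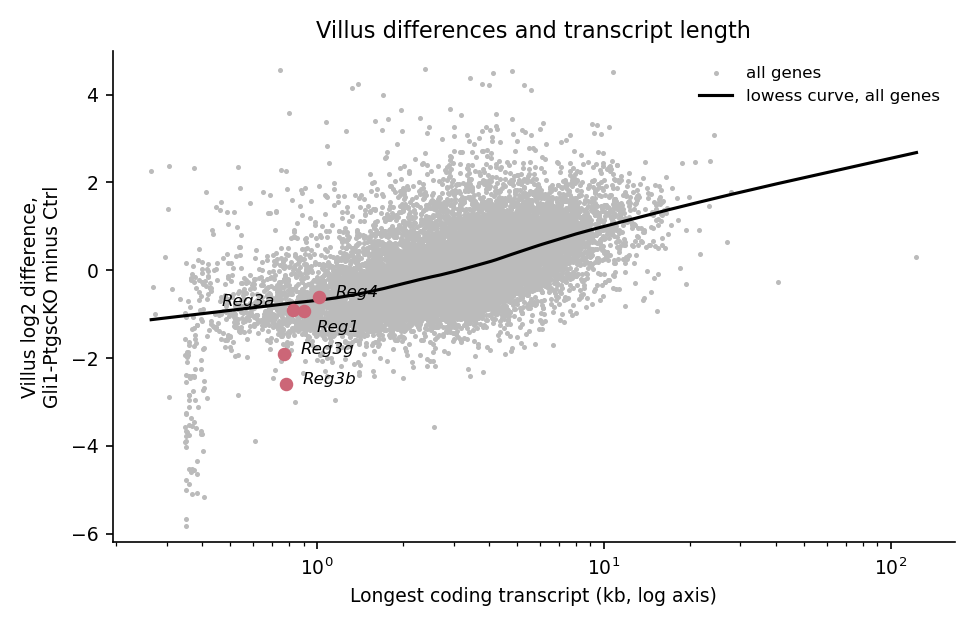
Each grey point is 1 villus gene, with the length of its longest coding transcript in kb on a log axis against its log2 difference, *Gli1-PtgscKO* minus Ctrl. The black line is a lowess curve over all genes and the 5 Reg genes are in red. *Reg3a*, *Reg1* and *Reg4* lie close to the curve, while *Reg3g* at −1.91 and *Reg3b* at −2.59 lie below the curve's −0.77 and −0.76.

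When the lowess curve of each library against length was subtracted, *Reg3b* kept a villus difference of −1.83, with −1.87 in replicate 1 and −1.79 in replicate 2. *Reg3g* kept −1.15, with −1.29 and −0.998. *Reg3a* came to −0.16, *Reg1* to −0.22 and *Reg4* to 0.07, and for each of these 3 genes 1 of the *Gli1-PtgscKO* libraries then lay above Ctrl. *Reg3b* and *Reg3g*, 2 of the 5, thus stayed below Ctrl in both libraries, against 43.7% of all genes, and both had a corrected mean difference under −1, against 4.7%. In crypts the same correction gave −0.68 for *Reg3b* (interval −1.50 to 0.15), −0.81 for *Reg3g* (interval −1.75 to 0.14), 0.10 for *Reg3a*, −0.15 for *Reg1* and 0.12 for *Reg4*, and the adjusted p by limma-trend remained 1.00 for each.

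**Figure D3:**
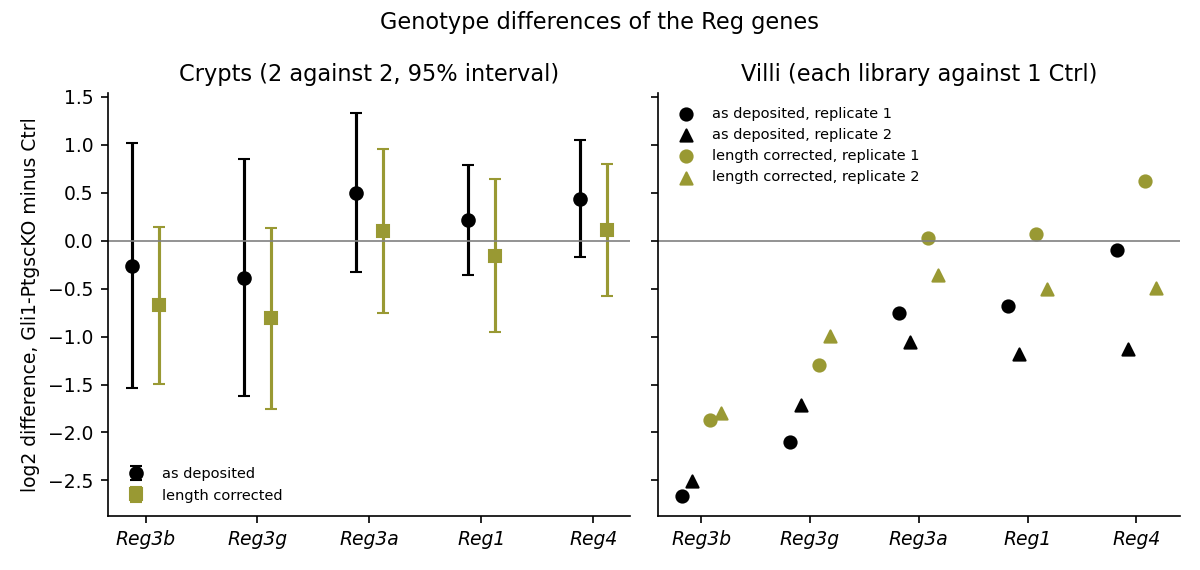
log2 differences, *Gli1-PtgscKO* minus Ctrl, of the 5 Reg genes as deposited (black) and after the length correction (olive). The crypt panel gives the limma-trend estimate of 2 against 2 libraries with its 95% interval, and every interval includes 0; the villus panel gives each *Gli1-PtgscKO* library against the single Ctrl library, where corrected *Reg3b* stays at −1.87 and −1.79 and corrected *Reg4* lies on both sides of 0.

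The 5 genes together took 1.42% of the reads on genes listed in both tables in Ctrl villi, and 0.473% and 0.437% in *Gli1-PtgscKO* villi. In crypts they took 0.575% and 0.272% in Ctrl and 0.407% and 0.259% in *Gli1-PtgscKO*. The Ctrl villus library therefore stood apart from the other 6 libraries, and within crypts the replicate 1 libraries were the higher ones. The mixture of transcripts differed as well. *Reg3b* made up 67.5% of all Reg reads in Ctrl villi and 44.8% and 50.2% in *Gli1-PtgscKO* villi, and the ratio of *Reg3b* to *Reg3g* reads was 3.47 in Ctrl villi against 2.34 and 2.01 in *Gli1-PtgscKO* villi. In crypts this ratio was 1.30 and 1.45 in Ctrl and 1.63 and 1.38 in *Gli1-PtgscKO*, which overlap.

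**Figure D4:**
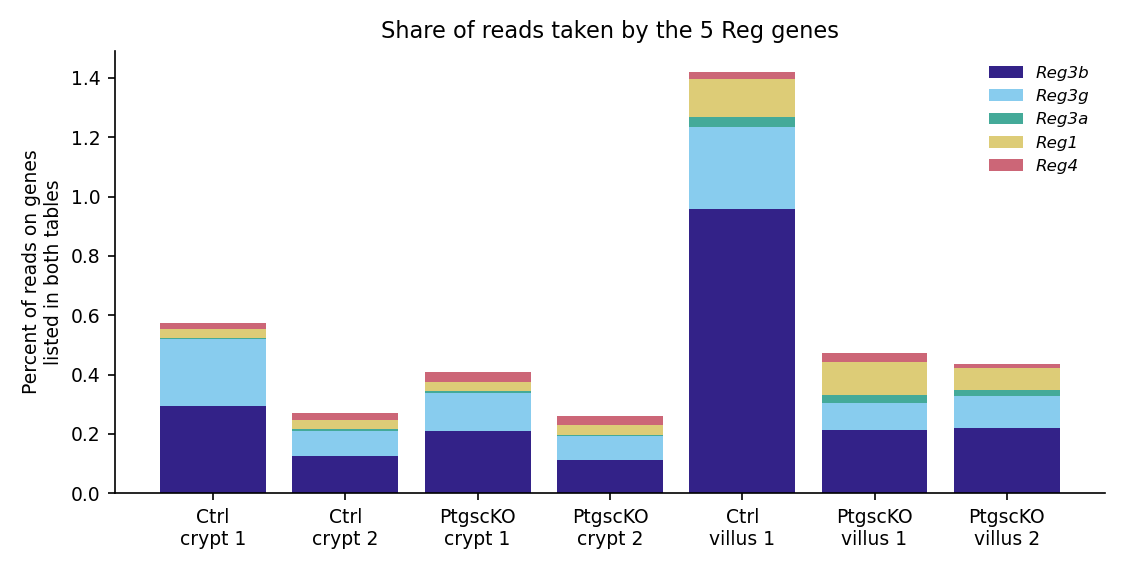
Percent of reads on the genes listed in both tables that fell on each of the 5 Reg genes, stacked, for the 7 distinct libraries (PtgscKO is *Gli1-PtgscKO*). The Ctrl villus library reaches 1.42%, the other libraries lie between 0.259% and 0.575%, and most of the excess is *Reg3b*.

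Levels per transcript length are RPKM values, reads per kilobase of the longest coding transcript scaled to the reads on genes listed in both tables. They put crypts and villi side by side, without a test, because the tissues were normalized separately. Division by length leaves in place the differences between libraries in how counts depended on transcript length. In Ctrl crypts *Reg3b* was highest with 1592 and 3764 RPKM, and *Reg3g* followed with a range of 1114 to 2931 that overlapped it. *Reg1* came next with 317 to 324, then *Reg4* with 221 to 261 and *Reg3a* with 38.2 to 63.0, 3 ranges that did not overlap. In *Gli1-PtgscKO* crypts the order was the same, with 1417 to 2673 for *Reg3b*, 1042 to 1662 for *Reg3g*, 344 to 362 for *Reg1*, 302 to 318 for *Reg4* and 57.4 to 76.2 for *Reg3a*, and again the first 2 overlapped.

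In the Ctrl villus library the level per length in RPKM was 12256 for *Reg3b*, 3583 for *Reg3g*, 1422 for *Reg1*, 397 for *Reg3a* and 231 for *Reg4*. In *Gli1-PtgscKO* villi it was 2707 to 2803 for *Reg3b*, 1174 to 1418 for *Reg3g*, 814 to 1246 for *Reg1*, 248 to 330 for *Reg3a* and 137 to 304 for *Reg4*. There *Reg3g* overlapped *Reg1*, and *Reg3a* overlapped *Reg4*, while *Reg3b* stayed clear of the rest. In all, 4 members, those other than *Reg4*, had a higher level per length in Ctrl villi than in either Ctrl crypt library, the ratio to the crypt mean being 4.58 for *Reg3b*, 1.77 for *Reg3g*, 7.84 for *Reg3a* and 4.43 for *Reg1*. In the *Gli1-PtgscKO* libraries the villus mean was 1.35 times the crypt mean for *Reg3b*, with a lowest ratio of 1.01 between single libraries, 4.33 times for *Reg3a* and 2.92 times for *Reg1*, whereas *Reg3g* and *Reg4* overlapped between the tissues.

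Over the 7 distinct libraries, after subtraction of each tissue's mean, log2 normalized counts of *Reg3b* and *Reg3g* had a Pearson correlation of 0.98. *Reg1* and *Reg4* had 0.85, *Reg3b* and *Reg1* 0.71, *Reg3b* and *Reg3a* 0.45, *Reg3b* and *Reg4* 0.32, and *Reg3g* and *Reg4* 0.15. The points share library, depth and transcript length, and for *Reg3b* they are led by the single Ctrl villus library, so these values are a description. Among 8347 genes with a mean of at least 100 normalized counts in each table, those most like *Reg3b* were *Ociad2* (r = 0.99), *Tfe3* (0.99), *Alg3* (0.99), *Serp1* (0.99) and *Ptcd2* (0.99). Their own villus differences lay between −0.79 for *Ptcd2* and −0.59 for *Serp1*, smaller than that of *Reg3b*.

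Genes of interleukin-22 and Stat3 signalling were listed in both tissues, although *Il22* itself was not. The fixed list of 12 genes also held the receptor genes *Il6ra*, *Il6st* and *Il11ra1* of other cytokines, and *Myd88* and *Nod2* of microbe sensing. Of these genes, 12 were listed in crypts, where 0 passed the test. There 0 were higher and 1 was lower in both *Gli1-PtgscKO* libraries (9.73% and 11.3% of all crypt genes). The median log2 fold change was −0.08 (−0.01 over all genes). The interleukin-22 receptor chain *Il22ra1* had 141 and 428 normalized counts in Ctrl crypts and 120 and 542 in *Gli1-PtgscKO* crypts, low in replicate 1 of each genotype. *Socs3*, the feedback inhibitor that Stat3 induces, had 514 and 282 against 389 and 719, and *Stat3* itself 1915 and 1533 against 1422 and 1813. All 3 genes overlapped between genotypes.

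In villi both *Gli1-PtgscKO* libraries lay above Ctrl for 4 of these 12 genes and below it for 6, with a median log2 difference of −0.13 (−0.01 over all genes). With 1 Ctrl library, 43.7% of all villus genes lay above Ctrl in both libraries and 44.2% below. *Socs3* had 930 normalized counts in Ctrl and 582 and 520 in *Gli1-PtgscKO*. *Stat3* had 1789 against 1434 and 1749, and the shared receptor chain *Il10rb* 1410 against 1215 and 1136. *Il22ra1* had 261 against 362 and 419, *Il6st* 83.4 against 199.6 and 220.2, and the kinase gene *Jak2* 993 against 1781 and 1781. *Il22ra1*, *Il6st* and *Jak2* thus lay above Ctrl in both libraries. After the length correction the median of the list was −0.14 (−0.02 over all genes). The correction took *Stat3* from −0.18 to −0.76, *Socs3* from −0.76 to −0.62 and *Il10rb* from −0.26 to 0.09. It took *Il22ra1* from 0.58 to 0.71, *Il6st* from 1.32 to 0.43 and *Jak2* from 0.84 to 0.43.

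A list of 22 genes of inducible epithelial defence, the company in which *Reg3b* and *Reg3g* are usually found, had 18 genes in the villus table. Both *Gli1-PtgscKO* libraries were below Ctrl for 13 (44.2% of all genes) and above it for 3 (43.7% of all genes), with a median log2 difference of −0.90, and of −0.76 after the length correction (−0.02 over all genes). *Saa1*, an acute-phase protein of epithelium and liver, had 594 normalized counts in Ctrl and 22.2 and 67.6 in *Gli1-PtgscKO*. *Lypd8*, a secreted protein that holds flagellated bacteria away from the epithelium, had 32706 against 15021 and 14568, a log2 difference of −1.14 as deposited and −0.54 after the length correction. *Nos2* had 856 against 263 and 817, so its difference came mainly from replicate 1.

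*Duoxa2*, which matures the hydrogen peroxide-forming enzyme Duox2, had 97.3 normalized counts in Ctrl villi against 19.1 and 49.3 in *Gli1-PtgscKO*, and *Ubd* 446 against 91.7 and 268, with its difference of −1.50 coming to −0.80 after the length correction. *Il18* had 1975 against 1187 and 1329, and its difference of −0.65 as deposited came to 0.07 after the length correction. *Pigr*, the carrier of IgA across the epithelium, had 52780 against 50186 and 45612. *Fut2*, the fucosyltransferase that interleukin-22 induces, went the other way, with 6.95 in Ctrl and 21.4 and 33.8 in *Gli1-PtgscKO*, and so did *Steap4*, with 11.6 against 35.9 and 38.6. The remaining gene above Ctrl was *Cxcl1*, with 5.79 against 12.2 and 29.9. *Duox2*, with 396 against 271 and 406, lay on both sides of Ctrl. The list thus did not lie wholly below Ctrl, but the genes above it had few counts in the single Ctrl library.

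**Figure D5:**
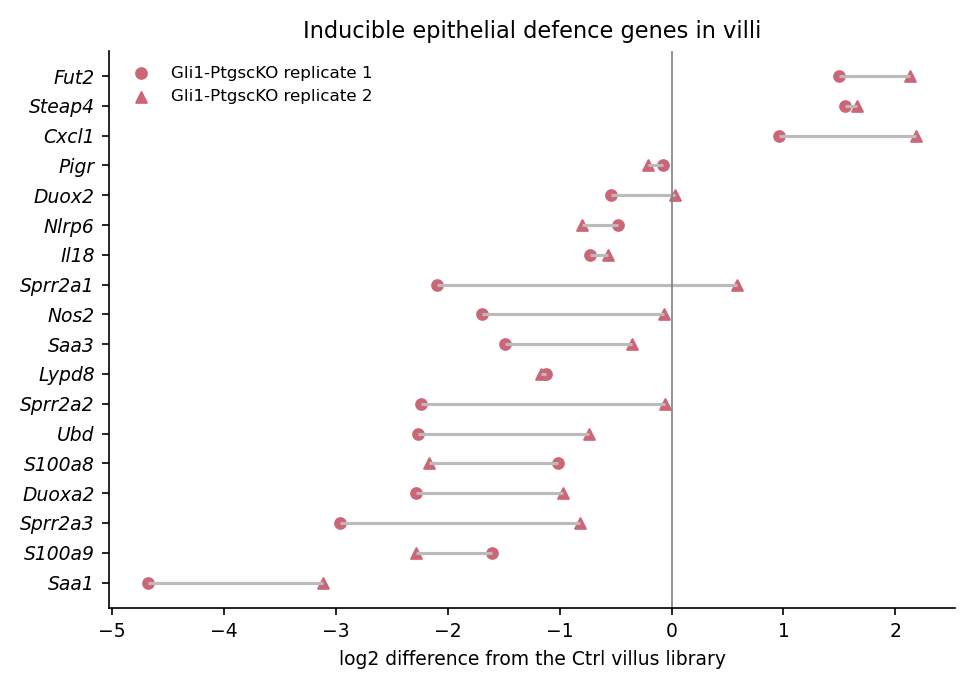
log2 difference from the Ctrl villus library for the 18 listed genes of inducible epithelial defence, on log2(normalized count + 1), without length correction; circles are *Gli1-PtgscKO* replicate 1 and triangles replicate 2, joined by a line. Both libraries lie left of 0 for 13 genes and right of 0 for 3, and *Saa1* lies farthest left.

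In crypts 15 of the 22 defence genes were listed. By limma-trend 0 passed an adjusted p under 0.05 and 1 had an unadjusted p under 0.05, which 0.632% of all crypt genes had. Both *Gli1-PtgscKO* libraries were higher for 3 (9.73% of all crypt genes) and lower for 1 (11.3%). The median was −0.06 as deposited and −0.07 after the length correction. *Lypd8* had 40663 and 34919 normalized counts in Ctrl crypts and 35069 and 31778 in *Gli1-PtgscKO* crypts, which overlapped. *Saa3* had 801 and 91.8 against 1152 and 394, high in replicate 1 of each genotype as *Reg3b* was. *Fut2* had 83.4 and 150.3 against 231 and 209, above Ctrl as in villi, with a log2 fold change of 0.97 and an adjusted p of 1.00 by limma-trend.

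Of 9 other genes for secreted proteins, most of them lectins, 5 were lower and 4 higher in both *Gli1-PtgscKO* villus libraries (44.2% and 43.7% of all villus genes). The higher genes were *Itln1*, *Mptx1*, *Mptx2* and *Clca1*, of which *Clca1* is not a lectin. Their median was −0.81 as deposited and −0.03 after the length correction. The galectin *Lgals4* had 86712 normalized counts in Ctrl villi and 40447 and 46069 in *Gli1-PtgscKO*, and *Lgals2* 14152 against 6942 and 6967. *Zg16*, a goblet cell lectin that binds Gram-positive bacteria, had 34823 against 15206 and 25878. The corrected differences of these 3 genes were −0.47, −0.18 and −0.03, nearer to 0 than those of *Reg3b* and *Reg3g*. *Mptx1* had few counts in Ctrl, 4.63 against 57.3 and 78.2. In crypts 0 of the 9 passed the test and the median was 0.25 as deposited and −0.03 after the length correction.

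Markers of other cells and of gut regions were set beside the Reg genes in villi. The 7 markers of ileum were all listed in villi, 6 lower and 1 higher in both *Gli1-PtgscKO* libraries (44.2% and 43.7% of all genes), with a median log2 difference of −0.68 as deposited and −0.09 after the length correction, and their summed level was 2884 CPM in Ctrl and 2065 and 1844 in *Gli1-PtgscKO*. *Fabp6*, the ileal bile acid-binding protein, had 19965 normalized counts against 4645 and 7501, a difference of −1.76 that came to −0.84. Of 12 listed immune cell genes 7 were lower and 2 higher, with a median of −0.41 as deposited and −0.24 corrected, and their sum was 1877 CPM against 959 and 1006. *Igkc*, the kappa light chain of antibodies, had 5063 against 537 and 935, *Jchain* 1211 against 220 and 364, and *Cd74*, the invariant chain of MHC class II, 12383 against 2843 and 1952. These genes had the most negative differences of the immune list. *Ptprc* went the other way, with 200 in Ctrl against 608 and 722 in *Gli1-PtgscKO*. *Cd3e*, with 233 against 212 and 253, and *Cd8a*, with 843 against 758 and 931, lay on both sides of Ctrl. The part of gut region and of immune cells in the villus values of the Reg genes was not tested.

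Within crypts *Cd74* had 10229 and 1929 normalized counts in Ctrl and 6554 and 2248 in *Gli1-PtgscKO*, the replicate 1 libraries being high as for *Reg3b* and *Reg3g*. The immune cell sum in crypts was 745 and 324 CPM in Ctrl and 447 and 362 in *Gli1-PtgscKO*, and the ileum sum 453 and 645 against 832 and 370. Paneth cell markers, which mark a source of *Reg3b* and *Reg3g* in crypts, summed to 31726 and 25984 CPM in Ctrl and 48737 and 25592 in *Gli1-PtgscKO*, which overlap. *Lyz1* and the other Paneth genes were all listed, and 0 of 14 passed the test in crypts. In villi 6 of the 14 were higher and 2 lower in both *Gli1-PtgscKO* libraries (43.7% and 44.2% of all villus genes). Their median log2 difference was 0.15 as deposited and 1.01 after the length correction. Their sum in villi was low beside that in crypts, with 681 CPM in Ctrl against 1261 and 836. The part of Paneth cells in the villus values of the Reg genes was not tested.

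Enteroendocrine genes were set beside *Reg4*. Of 17 listed in crypts, 4 were higher and 0 lower in both *Gli1-PtgscKO* libraries (9.73% and 11.3% of all crypt genes), and 0 passed the test. Their median log2 fold change was 0.35 as deposited and 0.14 after the length correction. *Chga*, the chromogranin of secretory granules, had 1366 and 1575 normalized counts in Ctrl crypts and 2581 and 1377 in *Gli1-PtgscKO* crypts, which overlapped. In villi 6 were higher and 8 lower (43.7% and 44.2% of all villus genes), with a median of −0.33 as deposited and 0.20 after the length correction. *Chga* had 2774 in Ctrl villi and 2774 and 1552 in *Gli1-PtgscKO* villi, low in replicate 2 as *Reg4* was.

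The remaining marker lists are given by counts of genes on 1 side of Ctrl in both *Gli1-PtgscKO* libraries, to be read against 43.7% above and 44.2% below among all villus genes. In villi 6 of 8 stem cell markers lay above Ctrl and 1 below, with a sum of 177 CPM in Ctrl against 420 and 314, while 1 of 10 enterocyte markers lay above and 6 below, with a sum of 32577 CPM against 34761 and 29168. Goblet cell markers counted 2 above and 7 below of 11, villus tip markers 4 above and 3 below of 10, duodenum markers 4 above and 2 below of 7, and mesenchymal markers 2 above and 4 below of 9 listed. The length correction took the median difference of the goblet cell list from −0.35 to −0.02, of the enterocyte list from −0.43 to −0.01, of the duodenum list from 0.43 to 0.02 and of the mesenchymal list from −0.07 to −0.42, while the stem cell list went from 0.59 to 0.49 and the villus tip list from 0.04 to 0.15. In crypts 0 genes of these 6 lists passed an adjusted p under 0.05 by limma-trend. Counts above and below were 0 and 0 for stem cells, 1 and 0 for enterocytes and 2 and 1 for goblet cells. They were 4 and 1 for villus tip, 2 and 0 for duodenum and 0 and 1 for mesenchyme. Among all crypt genes 9.73% lay above and 11.3% below. At the threshold of the study 1 goblet cell gene was lower, *Muc2*, with a log2 fold change of −1.13, and 1 duodenum gene was higher, *S100g*, with 1.00, which came to 0.42 after the length correction. *Il22* itself, made by lymphoid cells, was not among the listed genes of either table.

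The pancreas is rich in Reg proteins, and its acinar genes were therefore looked at. Of 18 such genes 9 were listed in villi and 8 in crypts, and *Cpa1* and *Amy2a5* were listed in neither. In villi 1 was higher and 4 were lower in both *Gli1-PtgscKO* libraries (43.7% and 44.2% of all villus genes). Their median was −0.70 as deposited and −0.00306 after the length correction. The summed level in villi was 757 CPM in Ctrl and 713 and 727 in *Gli1-PtgscKO*, and in crypts 269 and 212 in Ctrl against 481 and 229. Most of the villus sum was *Spink1*, which intestinal epithelium also makes, with 12172 normalized counts in Ctrl against 8247 and 8908. The other lower genes were *Cela1*, with 225 against 73.4 and 166, *Clps*, with 197 against 152 and 195, and *Pnliprp1*, with 37.1 against 6.12 and 20.3. *Prss2* and *Pnlip* had at most 21.2 in any villus library. In crypts *Clps* had 3203 and 2486 in Ctrl against 5644 and 2547. The part of pancreatic RNA in the Reg values was not tested.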

How the data were processed

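Crypt and villus RNA was sequenced on an Illumina instrument. The authors aligned reads to mm10 with STAR, counted them per gene and ran DESeq2. The deposited signal is each gene's read count over the DESeq2 size factor of its library, beside the authors' log2 fold changes and p-values, which were not used. The counter, its strand setting and the annotation are not given in the sources used here. Genes without an adjusted p are not listed. Dividing by the worth of 1 read gave whole numbers, within 0.01 read, for 100% of values. Columns of unmapped samples numbered 0.

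Crypt groups were compared with limma-trend (R 4.3.3, limma 3.58.1) on log2(normalized count + 1), mean of at least 1, 2 against 2 libraries, Benjamini-Hochberg over 11554 genes, without a block; the script was tested on simulated data. Villi were described only. Transcript lengths came from GENCODE M21 (longest coding transcript), promoters from RefSeq, and the length correction subtracted a lowess curve (span 0.3). Named genes were the Reg family, the pathway, lectin and cell type lists, and the 5 genes most correlated with *Reg3b*. Members and lists were chosen with earlier results of these data known. Alternatives were a replicate block, library size, filters, a pseudocount of 0.1, length correction, and leaving out each library. The 95% intervals come from the limma-trend fit and rest on the spread between libraries. Figures were drawn with matplotlib 3.10.9.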

Additional observations from a re-analysis of the deposited data

Results flagged for a closer look

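Of 47 genes examined, 5 lay above both Ctrl libraries in the 2 *Gli1-PtgscKO* crypt libraries but below Ctrl in the 2 *Gli1-PtgscKO* villus libraries. The difference between the tissues was not tested, because the tissues were normalized separately and villi have 1 Ctrl library. *Reg1* had a log2 difference of 0.21 in crypts and −0.93 in villi, which came to −0.15 and −0.22 after the length correction. *Reg4* had 0.44 and −0.61, which came to 0.12 and 0.07. *Lgals2* had 0.48 and −1.02, which came to −0.03 and −0.18. These 3 genes no longer lay on opposite sides of 0 after the correction. *Sprr2a2* and *Sprr2a3*, small proline-rich proteins of the epithelium, had 0.54 and 1.22 in crypts and −1.15 and −1.89 in villi, with 0.53 and 1.21 and −1.09 and −1.84 after the correction. *Sprr2a3* had 122 and 150 normalized counts in Ctrl crypts, 466 and 215 in *Gli1-PtgscKO* crypts, and 934 against 119 and 528 in villi. In villi *Sprr2a2* had 93.8 in Ctrl against 19.1 and 89.8, so its difference came mainly from replicate 1. *Sprr2a1*, a further gene of this group, overlapped Ctrl in both tissues. *Sprr2a2* and *Sprr2a3* are near-identical copies, so reads may be split between them. Of the 11227 genes in both tables, 1453 or 12.9% showed opposite directions of either kind. Among the 2065 genes whose *Gli1-PtgscKO* libraries lay on one side of Ctrl in both tissues, that share was 70.4%.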

How the results depend on the processing

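In crypts 0 of the 5 Reg genes passed either threshold under the main fit and the 11 other settings run. Count models (edgeR, DESeq2) on recovered crypt reads were planned and not run. A check that takes the smallest value as 1 read could not be met, because no listed crypt gene had 1 read. The worth of 1 read came instead from the spacing between values, and gave whole numbers within 0.01 read for 100% of crypt values. Without Ctrl replicate 1 the log2 fold change was 0.34 for *Reg3b* and 0.29 for *Reg3g*. Without *Gli1-PtgscKO* replicate 2 it was 0.26 and 0.01, and without Ctrl replicate 2 it was −0.85 and −1.06. Their crypt direction as deposited thus rests on single libraries, and these fits were not run with the length correction. With that correction and all libraries it was −0.68 and −0.81. With the replicate block added, *Reg3b* had an unadjusted p of 0.048 and an adjusted p of 0.99 by limma-trend. In that setting 293 of 11546 genes had an unadjusted p under 0.05. Fits that leave 1 library in a group assume that it varies like the others. Without *Gli1-PtgscKO* replicate 2, 1173 genes were higher and 814 lower at an adjusted p under 0.05, against 0 in the main fit, with no Reg gene among them. Same-numbered crypt libraries deviated together with r = 0.25 across genes over only 2 pairs, which share no more than a number. With the replicate block 32 genes were higher and 2 lower, and *Reg1* with length correction and block was −0.15, as with the correction alone. Length correction turned *Reg4* in villi to 0.065 and took the Reg genes below Ctrl in both villus libraries from 5 to 2; that count was 5 to 5 when either *Gli1-PtgscKO* library was left out. The cause was not tested. The 4 members higher per length in Ctrl villi were 4 with reads on all listed genes. One Ctrl villus library limits every villus value.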
